A study of Mus musculus with 57 samples.

Results

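Prefrontal cortex RNA was compared between mice that carried 1 copy of the Shank3 delta C allele (heterozygotes, HT) and wild-type (WT) mice that had both received lithium. All mice were of the C57BL/6J strain, and both genotypes took up lithium through their mother's milk for 3 weeks, from postnatal day 3 to 24. The tissue was taken on postnatal day 25. The libraries were chosen by genotype, drug and sex in the labels, and 18 of the 56 libraries analysed belong here: 5 from HT females, 4 from HT males, 4 from WT females and 5 from WT males. Females and males had equal weight. Another 18 libraries, from HT and WT mice that received vehicle through milk over the same days, gave the genotype difference without lithium (5 HT females, 3 HT males, 5 WT females and 5 WT males). The labels name no litter or dam and do not say how many mice a library holds, so the p-values treat libraries as independent although pups of 1 dam share its milk. HT mice keep 1 wild-type copy of Shank3 in every cell.

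The SHANK3 protein is a scaffold of the layer under excitatory synapses called the postsynaptic density, where Shank1, Shank2 and Shank3 link glutamate receptor complexes through Dlgap and Dlg proteins to the actin skeleton. Loss of 1 copy of SHANK3 in humans causes Phelan-McDermid syndrome, which often includes autism. Lithium, a mood stabiliser, inhibits the kinase GSK3, which restrains Wnt signalling, and inositol monophosphatase, which recycles inositol.

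The lithium libraries held 22984556 to 35969254 reads over 18088 listed genes. Female libraries had Xist values of 11388 or more and Ddx3y values of 1.88 or less, and male libraries had Xist values of 8.83 or less and Ddx3y values of 1178 or more, as labelled. The cortical excitatory neuron genes Slc17a7 and Tbr1 were present in all 18 libraries, at 40273 or more and 2349 or more normalised counts. Markers of the olfactory bulb, which lies next to the prefrontal cortex, were also present, and their mean level relative to all 56 libraries differed widely. It was 0.07 to 0.23 in HT males and 0.36 to 2.30 in WT males, with no overlap, 0.16 to 3.34 in HT females and 0.12 to 2.71 in WT females. HT female replicate 5 stood apart, with mitochondrially encoded genes at -1.67 log2 units against the median library and a slope of its values on GC content of 0.255 log2 units per 10 percentage points.

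No gene passed the test between HT and WT mice under lithium. Of 18026 genes tested by limma, 0 (0%) had an adjusted p under 0.05, and the smallest adjusted p was 0.166. At an unadjusted p under 0.05 there were 1771 genes (9.82%), of which 894 (4.96%) were higher in HT and 877 (4.87%) lower. edgeR on the recovered reads also called 0, and 1801 of them had an unadjusted p under 0.05. The median 95% confidence interval of a gene reached 0.183 log2 units to either side of its estimate. With the olfactory level as a covariate 1 gene passed (Tnc). Leaving out HT lithium female replicate 3 or WT lithium male replicate 5 gave 1 (Zfp524), and leaving out WT lithium female replicate 1 gave 1 (Nhsl2). Weighting libraries by their quality gave 81 calls (0.449% of genes, 41 higher and 40 lower), with a weight of 0.187 for HT female replicate 5. Leaving out the 6 lithium libraries whose olfactory level was above the mean gave 241 calls (1.34%, 169 higher and 72 lower). These 6 were replicates 2, 3 and 4 of the HT females, replicate 1 of the WT females and replicates 1 and 2 of the WT males, so that 2 HT females, 1 of them replicate 5, remained. The 2 sets of calls shared 15 genes, which is 15 of 81 and 15 of 241.

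**Figure D1:**
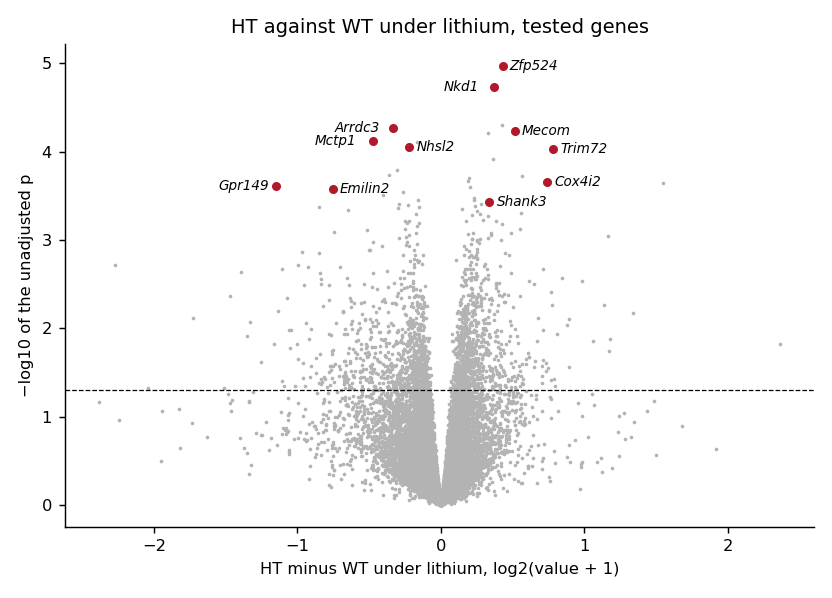
Each point is 1 of 18026 tested genes, with the difference HT minus WT under lithium on the log2(value + 1) scale on the x axis and −log10 of the unadjusted p on the y axis. The dashed line marks an unadjusted p of 0.05, red points are genes named in the text, and 0 genes passed the adjusted threshold.

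Shank3, at chromosome 15, 89499623 to 89560261 of GRCm38, was measured at 9984, 9284, 9441, 7366 and 10321 normalised counts in the 5 HT lithium females and 7178, 7645, 7926 and 8310 in the 4 WT lithium females. In the HT lithium males it was 9949, 11196, 10002 and 10186, and in the WT lithium males 8093, 7189, 8588, 6565 and 8040. Every HT male lay above every WT male, and 4 of 5 HT females lay above every WT female. Over all tested genes, HT males lay entirely above WT males in 3.48% and entirely below in 3.36%. HT minus WT was 0.34 ± 0.09 (SE) on the log2 scale with both sexes (95% confidence interval 0.16 to 0.52), and limma's adjusted p was 0.214. It was 0.25 ± 0.13 (SE) in females and 0.43 ± 0.13 (SE) in males. Under vehicle it was 0.05 ± 0.09 (SE), and the difference between lithium and vehicle, 0.29 ± 0.13 (SE), had an adjusted p of 0.471. These gene-level values join all transcripts of both alleles, so they do not show how much of the RNA came from the delta C allele and do not check the genotype labels.

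The other Shank genes had values in the same direction in males. Shank1 was 23461, 25211, 24460 and 23613 in HT lithium males and 21661, 17172, 17837, 17172 and 18920 in WT lithium males, without overlap. In females the groups overlapped, at 18645 to 23565 in HT and 18541 to 21491 in WT. HT minus WT of Shank1 was 0.24 ± 0.08 (SE), with an adjusted p of 0.361 by limma. Shank2 was 9652 to 10241 in HT lithium males and 7792 to 9268 in WT lithium males, and it overlapped in females, at 7734 to 10126 and 7993 to 9562. HT minus WT of Shank2 was 0.13 ± 0.07 (SE), with an adjusted p of 0.546.

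**Figure D2:**
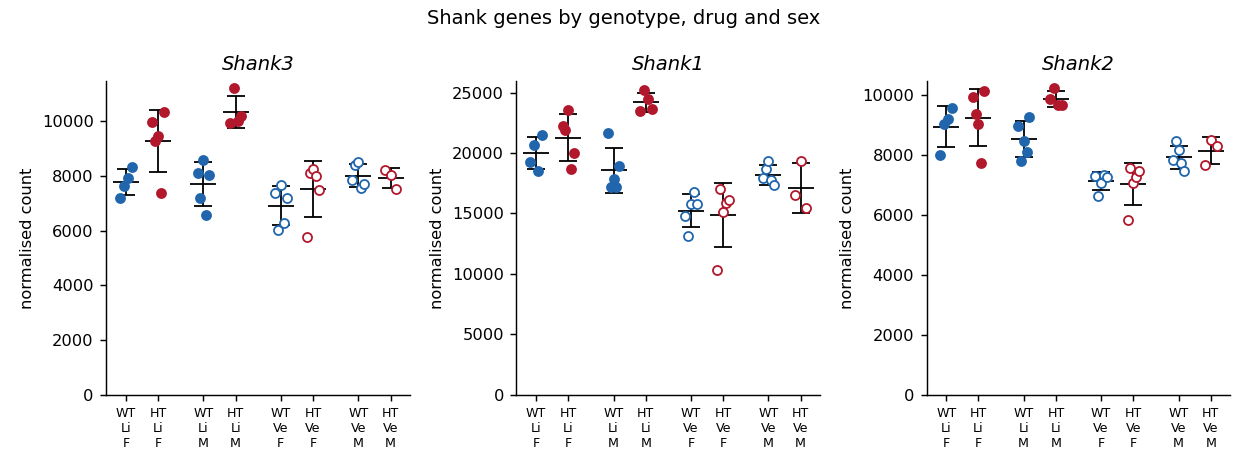
Normalised counts of Shank3, Shank1 and Shank2 (y axis) by genotype, drug (Li, lithium, filled points; Ve, vehicle, open points) and sex (F, M); each point is 1 library, bars are the mean and SD. Under lithium all 4 HT males lie above all 5 WT males for each of the 3 genes, and under vehicle the genotypes overlap in both sexes.

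Neighbours of the mutated gene can differ through alleles carried along with it. Within 10 Mb of Shank3, 246 genes were tested and 0 passed. At an unadjusted p under 0.05 there were 29 (11.8%, against 9.82% of all genes), 19 higher and 10 lower, and Shank3 had the smallest p. The next were Mcrs1, at 0.16 ± 0.05 (SE), and Gxylt1, at -0.19 ± 0.06 (SE), both with an adjusted p above 0.3 by limma.

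The genes with the smallest p on the higher side came from several functions. Zfp524, a zinc finger gene, was 94.4 to 141 normalised counts in HT lithium females and 84.8 to 100.3 in WT lithium females, and 114 to 144 in HT lithium males and 81.1 to 116 in WT lithium males. Its difference was 0.43 ± 0.09 (SE), the gene's adjusted p by limma was 0.166, and under vehicle the difference was 0.02. Trim72, which encodes a membrane repair protein known from muscle, was 87.1, 72.7, 91.6, 91.0 and 145 in HT lithium females and 40.3, 49.8, 66.6 and 47.8 in WT lithium females. In males Trim72 was 102 to 122 in HT and 60.8 to 84.0 in WT. The genotypes did not overlap in either sex, the difference was 0.78 ± 0.18 (SE), and the adjusted p was 0.170. In females the HT libraries lay above the WT libraries in 0.499% of tested genes and below in 0.383%.

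Mecom, a transcription factor gene, showed 75.3 to 133 in HT and 53.0 to 71.2 in WT lithium females, and its groups overlapped in males (82.8 to 116 and 49.3 to 83.5). Its difference was 0.52 ± 0.12 (SE), with 0.00 under vehicle. Bin2, a gene of microglia and other phagocytes, differed by 0.43 ± 0.10 (SE). Taf6l, a subunit of histone acetyltransferase complexes, differed by 0.33 ± 0.07 (SE). Cspg5, a brain chondroitin sulfate proteoglycan, differed by 0.20 ± 0.05 (SE), the amino acid transporter Slc38a10 by 0.19 ± 0.05 (SE), and Cox4i2, a subunit of cytochrome c oxidase found in pericytes, by 0.74 ± 0.19 (SE). Cox4i2 was low, at 9.5 to 53.0 over the 18 libraries. The adjusted p of these 6 genes lay between 0.170 and 0.214.

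On the lower side, Gpr149, an orphan receptor gene, was 8.5, 20.2, 9.1 and 25.1 in HT lithium males and 27.4 to 46.5 in WT lithium males. The male groups did not overlap, and in females HT was 9.4 to 44.2 and WT 24.4 to 47.7. Its difference was -1.15 ± 0.29 (SE). Emilin2, an extracellular matrix glycoprotein gene, was 31.3 to 58.6 in HT and 65.5 to 103 in WT lithium males, with a difference of -0.75 ± 0.19 (SE). Mctp1, a calcium-binding membrane protein gene, differed by -0.48 ± 0.11 (SE), and Arrdc3, an arrestin-related adaptor, by -0.34 ± 0.08 (SE). Sesn3, a sestrin that restrains mTORC1, was 5443 to 5838 in HT and 5909 to 6856 in WT lithium females, without overlap, and its difference was -0.17 ± 0.04 (SE).

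Esrrg, an orphan nuclear receptor of energy metabolism, differed by -0.31 ± 0.08 (SE). Enpp4, an ectonucleotide hydrolase, differed by -0.26 ± 0.07 (SE), and the glycosyltransferases Mgat4c and B3galt5 by -0.36 ± 0.09 (SE) and -0.40 ± 0.10 (SE). The adjusted p of the 10 genes of smallest p on this side lay between 0.170 and 0.214. All 20 genes, 10 on each side, kept their direction under all 31 alternatives that gave this comparison. With library weights 17 of the 20 were called, against 81 (0.449%) of all tested genes. Without the libraries of high olfactory level 10 were called, against 241 (1.34%). The 8 called by both were Zfp524, Nkd1, Bin2, Trim72, Cspg5, Arrdc3, Sesn3 and Nhsl2. The 20 were picked by their p in this comparison and the alternatives reuse its libraries, so these counts are no separate support.

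The genotype difference under lithium differed from that under vehicle in 3 of 18026 genes (0.0166%) by limma, Nkd1, Vwa1 and Nhsl2. At an unadjusted p under 0.05 there were 1712 genes (9.50%), and under vehicle itself, with both sexes, 0 genes passed and 1119 (6.21%) reached that level. Within the vehicle sexes, a comparison added after seeing the data, limma called 47 genes (0.261%) in males, 28 higher in HT and 19 lower. The male count was 1 without HT vehicle male replicate 3 or WT vehicle male replicate 4 and 86 without WT vehicle male replicate 1. In vehicle females limma called 0 genes (0%), 385 had an unadjusted p under 0.05, and edgeR called 8. Nkd1 is a Wnt target gene whose product binds Dishevelled and restrains Wnt signalling. Under lithium it was 592, 625, 653, 659 and 749 in HT females and 615, 467, 524 and 573 in WT females, and 610, 624, 631 and 681 in HT males and 509, 522, 439, 389 and 453 in WT males. The male groups did not overlap and the female groups did. Under vehicle Nkd1 was 531, 525 and 518 in the 3 HT males and 627, 742, 734, 808 and 778 in the 5 WT males, so the order of the genotypes was the opposite. Vehicle females overlapped, at 523 to 674 in HT and 510 to 699 in WT. HT minus WT was 0.37 ± 0.08 (SE) under lithium and -0.25 ± 0.08 (SE) under vehicle, a difference of 0.61 ± 0.11 (SE) with an adjusted p of 0.0211.

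Vwa1 encodes an extracellular matrix protein of basement membranes. In males it was 872, 845, 851 and 997 in HT and 680, 690, 609, 533 and 577 in WT under lithium, and 556, 619 and 525 in HT and 864, 943, 866, 1084 and 842 in WT under vehicle. The genotypes did not overlap in males under either drug, in opposite orders. In females they overlapped under both, at 768 to 1090 in HT and 557 to 937 in WT under lithium and at 772 to 810 in HT and 666 to 827 in WT under vehicle. HT minus WT was 0.36 ± 0.09 (SE) under lithium and -0.28 ± 0.09 (SE) under vehicle, a difference of 0.64 ± 0.12 (SE) with an adjusted p of 0.0248.

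Nhsl2, an X-linked relative of the Nance-Horan syndrome gene, had the opposite sign. In males it was 2036, 1976, 1981 and 1865 in HT and 2060, 2297, 2208, 2482 and 2568 in WT under lithium, and 2024, 2196 and 2114 in HT and 1643, 1748, 1779, 1451 and 1628 in WT under vehicle. The male groups again did not overlap under either drug. Lithium females were 1838 to 2136 in HT and 1844 to 2581 in WT, and vehicle females 1537 to 1816 in HT and 1622 to 1882 in WT. HT minus WT was -0.22 ± 0.05 (SE) under lithium and 0.16 ± 0.05 (SE) under vehicle, a difference of -0.38 ± 0.07 (SE) with an adjusted p of 0.0248.

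In vehicle males alone HT minus WT was -0.49 ± 0.12 (SE) for Nkd1, -0.69 ± 0.13 (SE) for Vwa1 and 0.36 ± 0.08 (SE) for Nhsl2, with adjusted p of 0.0574, 0.00882 and 0.0318 by limma. In vehicle females it was -0.01 ± 0.10 (SE), 0.14 ± 0.12 (SE) and -0.04 ± 0.07 (SE). Whether the drug-dependent difference itself differed between the sexes was not tested. The 3 genes were picked by the difference between lithium and vehicle, so their opposite orders in males are no separate support. The share of all genes without overlap between the genotypes in vehicle males was not counted. By limma 2248 of 18026 genes had an unadjusted p under 0.05 in vehicle males. With the correction for GC content and length Vwa1 (0.55, adjusted p 0.184) and Nhsl2 (-0.32, adjusted p 0.266) did not pass, and Nkd1 (0.59, adjusted p 0.0278) did. The calls depended on single libraries: none of the 3 genes passed without HT lithium male replicate 4, WT lithium female replicate 2, WT lithium male replicate 4, HT vehicle male replicate 3 or WT vehicle male replicate 4. None passed either without the 2 libraries that stood apart, HT lithium female replicate 5 and HT vehicle female replicate 1, where all 3 adjusted p were 0.0521. Over those 6 alternatives Nkd1 lay between 0.56 and 0.61. Without the lithium libraries of high olfactory level 356 genes (1.97%) passed.

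**Figure D3:**
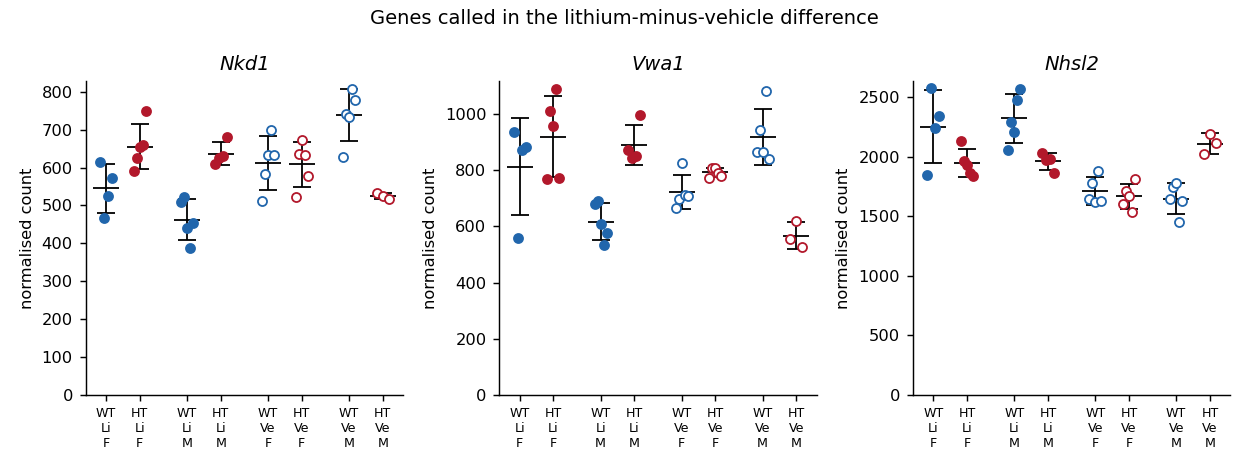
Normalised counts of Nkd1, Vwa1 and Nhsl2 (y axis) by genotype, drug (Li, lithium, filled points; Ve, vehicle, open points) and sex (F, M); each point is 1 library, bars are the mean and SD. In males the order of the genotypes under lithium is the reverse of that under vehicle for all 3 genes, while the vehicle females overlap. The 3 genes were picked by the difference between lithium and vehicle.

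Within the sexes, 0 genes passed in females and 0 in males, and 0 differed between the sexes. At an unadjusted p under 0.05 there were 872 genes (4.84%) in females, 441 higher (2.45%) and 431 lower (2.39%), and 2143 (11.9%) in males, 994 higher (5.51%) and 1149 lower (6.37%). The difference between the sexes reached that level in 959 genes (5.32%), with HT minus WT larger in males in 453 (2.51%) and larger in females in 506 (2.81%). edgeR called 0 in each of the 3. With library weights 428 genes (2.37%) passed in males, 0 (0%) in females and 6 between the sexes. Without the lithium libraries of high olfactory level 121 genes (0.671%) passed in females, where 2 HT libraries remained, and 0 (0%) in males. The olfactory level of HT males lay below that of WT males in every library, and its part in the male values was not tested. With that level as a covariate, 1 gene passed in males and with both sexes, Tnc, an extracellular matrix glycoprotein gene. Tnc, named after its values were seen, went from 0.46 ± 0.18 (SE) with both sexes to 0.67 with the covariate, with an adjusted p of 0.0157.

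Genes were then grouped into 40 lists by role, and no list held a member that passed. The lists are described by their median HT minus WT on the log2 scale, against a median of -0.01 over all genes, and by how many members had an unadjusted p under 0.05, against 4.96% of all genes higher and 4.87% lower. Among 32 postsynaptic density scaffolds, 27 were above 0, 8 were higher at that level and 0 lower, and the median was 0.08 (0.02 in females, 0.17 in males and 0.01 under vehicle). Dlgap3, which joins Shank proteins to Dlg4, was 12278 to 15304 in HT lithium males and 7662 to 11971 in WT lithium males, and differed by 0.38 ± 0.12 (SE). Begain, a Dlg4-binding protein, differed by 0.28 ± 0.10 (SE). Dlg4 itself, which encodes PSD-95 and was named after its values were seen, was 31803 to 36725 in HT males and 23799 to 29354 in WT males and differed by 0.20 ± 0.08 (SE). With the olfactory level as a covariate, which in males did not overlap between the genotypes, the scaffold median was 0.04, 20 of 32 were above 0, and 6 were higher and 1 lower. Dlgap3 was then 0.23 and Dlg4 0.11, and the part of the olfactory level was not tested.

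Receptor lists lay closer to 0. Medians were 0.00 for 17 AMPA receptor genes and auxiliary subunits, 0.04 for 6 NMDA receptor genes, -0.01 for 7 metabotropic glutamate receptor genes and -0.05 for 14 GABA-A receptor genes. Gria2, the subunit that keeps AMPA receptors impermeable to calcium, was 18672 to 20783 in HT and 20877 to 27386 in WT lithium males, and differed by -0.18 ± 0.07 (SE). The AMPA receptor auxiliary subunit Cacng3 differed by 0.19 ± 0.09 (SE) and the receptor gene Grm3 by 0.24 ± 0.10 (SE). Of 26 presynaptic release genes 1 was higher and 0 lower. Among 29 voltage-gated channel genes 1 was higher and 3 lower.

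Genes tied to the action of lithium gave few differences. Among 16 lithium target and inositol genes 0 had an unadjusted p under 0.05, and the median was 0.00. Gsk3b, a direct target of lithium, differed by 0.04 ± 0.06 (SE), and Impa1, an inositol monophosphatase, by -0.08 ± 0.05 (SE). Gsk3a differed by 0.07 ± 0.06 (SE), a sign that turned with the olfactory covariate and with the correction for GC content and length. Gsk3a and Gsk3b were named after their values were seen. Of 14 Wnt target genes 10 were above 0 and 1, Nkd1, had an unadjusted p under 0.05. Of 15 sodium and chloride transport genes 1 was higher and 3 lower. Slc8a1, the sodium-calcium exchanger, was 6324 to 8802 in HT and 8224 to 10756 in WT lithium females and 6457 to 7701 in HT and 7531 to 10488 in WT lithium males. It differed by -0.30 ± 0.08 (SE), with an adjusted p of 0.214 by limma, and Slc12a2, the sodium-potassium-chloride cotransporter, differed by -0.22 ± 0.09 (SE).

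Among 21 glucocorticoid-responsive genes 1 was higher and 3 lower, with a median of -0.09 under lithium and 0.14 under vehicle, where 8 were higher and 0 lower (3.17% and 3.04% of all genes under vehicle). In the difference between the genotype effects under lithium and under vehicle, 0 were higher and 10 lower, against 4.84% and 4.66% of all genes, and none of the 21 passed the adjusted threshold. Fkbp5, a chaperone induced by the glucocorticoid receptor, was 944, 981, 1226 and 948 in HT lithium males and 1784, 1550, 1454, 1988 and 1566 in WT lithium males. Lithium females overlapped, at 936 to 1502 and 1021 to 1208. Fkbp5 differed by -0.03 in females, -0.70 in males and 0.30 under vehicle. Plin4, a lipid droplet gene induced by glucocorticoids, differed by -0.99 ± 0.30 (SE) under lithium and 0.41 under vehicle.

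Other pathway lists had small medians under lithium. The 24 immediate early genes had a median of 0.09 under lithium and -0.33 under vehicle. Under lithium 1 was higher, and under vehicle 8 were lower, against 3.04% of all genes. In the difference between the 2 genotype effects (lithium minus vehicle) their median was 0.29, with 4 higher and 0 lower, against 4.84% and 4.66% of all genes. Egr4, a transcription factor induced by neuronal activity, differed by 0.41 ± 0.19 (SE) under lithium. The immediate early median under lithium turned to -0.02 without the lithium libraries of high olfactory level. Of 81 cytosolic ribosomal protein genes 63 were above 0 and 6 were higher, with a median of 0.04 (-0.09 under vehicle), and Rps2 differed by 0.24 ± 0.07 (SE) and Rpl6 by 0.12 ± 0.05 (SE). Under vehicle 71 of the 81 were below 0, with 0 higher and 14 lower, against 3.17% and 3.04% of all genes. In the difference between the 2 genotype effects (lithium minus vehicle) 23 of the 81 were higher and 0 lower, against 4.84% and 4.66% of all genes. Under lithium 6 of 78 mitochondrial ribosomal protein genes were higher and 1 lower, with Mrps26 at 0.21 ± 0.07 (SE). Of 76 nuclear oxidative phosphorylation genes 4 were higher and 1 lower under lithium, with Ndufa8 at 0.18 ± 0.07 (SE). The counts under lithium moved with the processing: apart from leaving out 1 library, the alternatives gave 3 to 21 higher of the 81, 3 to 19 of the 78 and 1 to 20 of the 76. The most in each list came without the lithium libraries of high olfactory level. That fit kept 2 HT females, 1 of them replicate 5, which lay far from its group in Rpl6 and Ndufa8. The cytosolic ribosomal median was 0.003 with the GC and length correction and 0.10 without the libraries of high olfactory level.

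Of 13 thyroid hormone genes 3 were higher, among them Nrgn, a calmodulin-binding protein of dendrites known to respond to thyroid hormone, at 0.33 ± 0.13 (SE), and the thyroxine transporter Slco1c1 at 0.28 ± 0.11 (SE). The thyroid list median was 0.07, with -0.06 in females, 0.20 in males and 0.11 under vehicle. With the olfactory covariate that median was 0.004 and Nrgn differed by 0.16. Slco1c1 differed by 0.12 without the lithium libraries of high olfactory level. Of 24 cholesterol synthesis genes 2 were higher and 0 lower, and the list median of 0.04 turned to -0.03 with the olfactory covariate. In males 7 of the 24 were higher and 0 lower (median 0.17), and in females 0 were higher and 1 lower (median -0.10). Of all genes 5.51% were higher and 6.37% lower in males, and 2.45% and 2.39% in females. Of 22 endoplasmic reticulum stress genes 2 were higher, the chaperones Dnajb11 at 0.12 ± 0.05 (SE) and Calr at 0.12 ± 0.05 (SE). Of 18 AKT and mTOR pathway genes 2 were higher and 1 lower. Akt2 was 4032 to 4761 in HT and 2723 to 3410 in WT lithium males and overlapped in females, and it differed by 0.25 ± 0.08 (SE). Rictor, the core subunit of mTORC2, differed by -0.14 ± 0.05 (SE). Among 10 neurotrophin genes 1 was higher, Bdnf, at 0.26 ± 0.13 (SE), and 1 was lower. Of 16 activity-induced effectors 3 were higher and 1 lower. Of 33 chromatin and transcription genes linked to autism risk 24 were below 0, with 0 higher and 1 lower. Of 19 circadian clock genes 0 were higher and 1 lower, and of 17 cytosolic heat shock chaperones 0 in either direction.

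**Figure D4:**
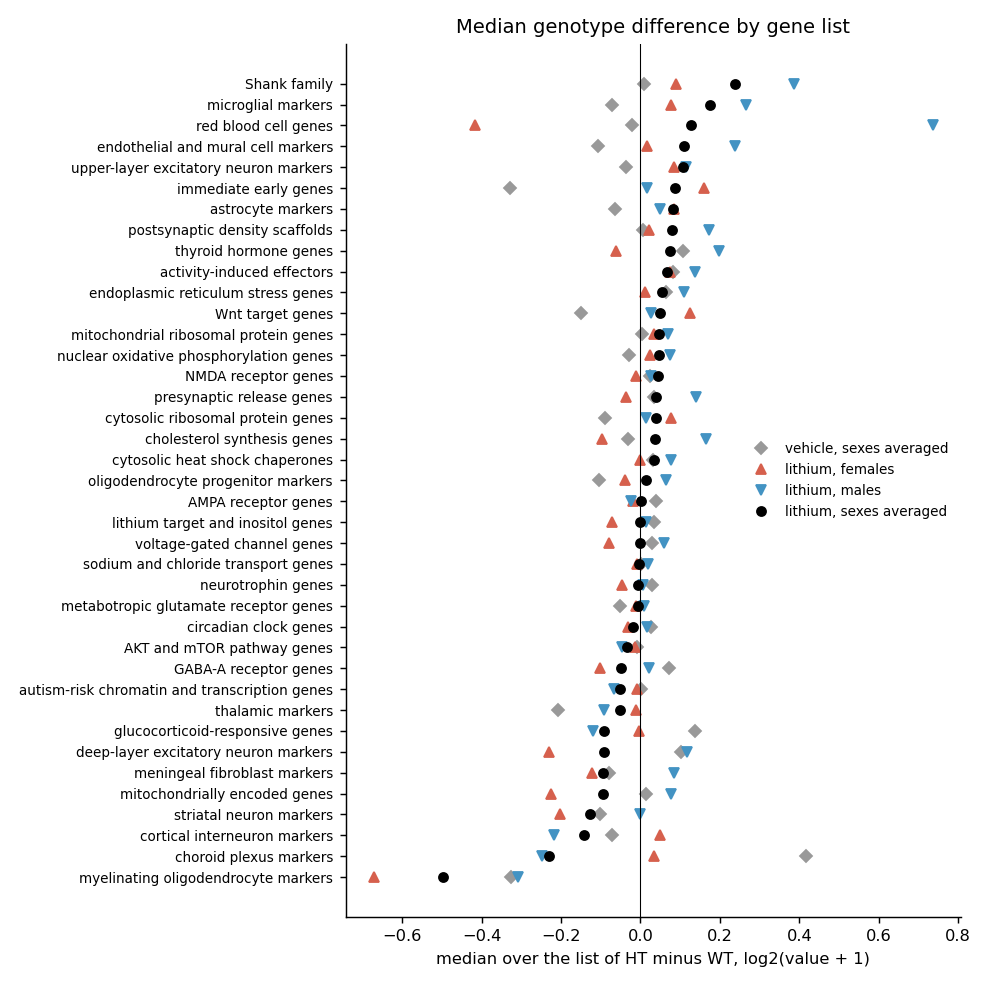
Median of HT minus WT over each gene list on the log2(value + 1) scale (x axis), for lithium with both sexes (black circles), lithium females, lithium males and vehicle with both sexes (grey diamonds). Olfactory bulb markers, at a median of -1.29 with both sexes, are left out. Myelinating oligodendrocyte markers have the lowest median, -0.50, of the lists drawn.

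Myelinating oligodendrocytes are the cells that wrap axons. Of 22 of their markers 20 were below 0, 15 were lower at an unadjusted p under 0.05 and 0 higher, and the median was -0.50 (-0.67 in females, -0.31 in males and -0.33 under vehicle, where 6 were lower). In the difference between the 2 genotype effects (lithium minus vehicle) 1 of the 22 was lower. Of all genes 3.04% were lower under vehicle and 4.66% in that difference. In bulk tissue, fewer cells of a type and less RNA per cell cannot be told apart. Mbp, which encodes myelin basic protein, was 57551, 21712, 27751, 46450 and 71574 in HT lithium females and 68164, 63309, 49754 and 74382 in WT lithium females. HT lithium males had 25261, 32486, 51531 and 56573, and WT lithium males 50606, 64126, 41898, 52509 and 49711. Low values thus came from some HT libraries, and the groups overlapped in both sexes. HT minus WT was -0.50 ± 0.21 (SE) for Mbp and -0.57 ± 0.21 (SE) for Mog, which were named after their values were seen. Mal differed by -0.70 ± 0.22 (SE) and Tspan2 by -0.50 ± 0.15 (SE), both with an adjusted p under 0.3 by limma. The list's mean level was 0.49 to 1.40 in HT and 1.01 to 1.36 in WT females, and 0.60 to 1.13 in HT and 0.79 to 1.25 in WT males. HT female replicates 2 and 3, the lowest at 0.49 and 0.60, were among the libraries of high olfactory level. HT males, whose list level reached down to 0.60, had olfactory levels of 0.07 to 0.23. Without the lithium libraries of high olfactory level the median was -0.14 and 0 markers were lower. All 4 HT males and 2 HT females remained in that fit. Of those 2 females 1 was replicate 5, with the highest Mbp of the HT females (71574). With the striatal marker level as a covariate the median was -0.32 and 7 were lower. With library weights, where HT female replicate 5 had a weight of 0.187, the median was -0.62 and 22 of 22 were below 0. In that fit 19 were lower, and 5 passed the adjusted threshold (Mog, Mobp, Mal, Ermn and Tspan2). The part of tissue composition in the myelin values was not tested.

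Microglial markers lay on the other side. Of 20, 19 were above 0, 10 were higher at an unadjusted p under 0.05 and 0 lower, and the median was 0.18 (0.08 in females, 0.26 in males and -0.07 under vehicle). In the difference between the 2 genotype effects (lithium minus vehicle) the median was 0.25, with 8 higher and 0 lower, against 4.84% and 4.66% of all genes. Olfml3, a matrix protein secreted by microglia, was 591 to 701 in HT and 423 to 639 in WT lithium females and 527 to 702 in HT and 365 to 546 in WT lithium males, and it differed by 0.33 ± 0.10 (SE). The complement gene C1qa differed by 0.18 ± 0.06 (SE), and Cx3cr1, the fractalkine receptor, by 0.18 ± 0.08 (SE). Cx3cr1 overlaps other listed genes on its strand. P2ry12, a purine receptor of resting microglia, differed by 0.08 ± 0.12 (SE) and by -0.15 without the libraries of high olfactory level. Cx3cr1 and P2ry12 were named after their values were seen. The list's mean level overlapped in both sexes, at 0.98 to 1.18 in HT and 0.88 to 1.02 in WT females and 0.95 to 1.18 in HT and 0.81 to 0.99 in WT males.

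**Figure D5:**
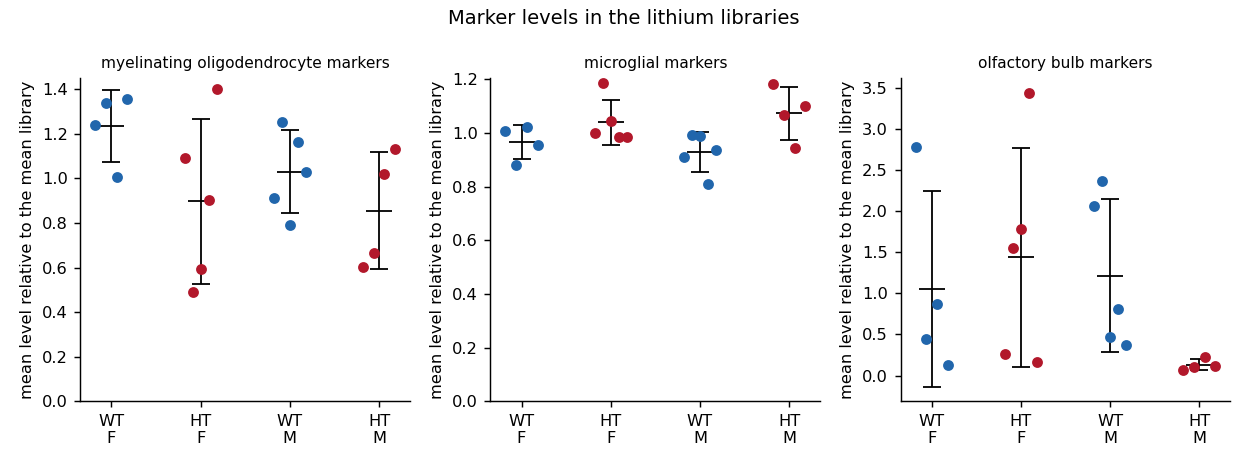
Mean level of 3 marker lists in each lithium library relative to the mean of the 18 lithium libraries (y axis), by genotype and sex (F, M); points are libraries, bars are the mean and SD. The olfactory level of all 4 HT males lies below that of all 5 WT males, and the myelin and microglial levels overlap between the genotypes.

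Of 20 endothelial and mural cell markers 17 were above 0 and 2 were higher, with a median of 0.11 (0.02 in females, 0.24 in males and -0.11 under vehicle). The 2 were the receptors Tek, which was 439 to 748 in HT and 299 to 430 in WT lithium males and differed by 0.35 ± 0.09 (SE), and Kdr, which differed by 0.41 ± 0.13 (SE). Without the lithium libraries of high olfactory level the list median was 0.02. Cldn5, a tight junction gene named after its values were seen, differed by 0.19 ± 0.10 (SE). Of 15 astrocyte markers 2 were higher and 0 lower, and of 12 oligodendrocyte progenitor markers 0 in either direction.

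Neuronal marker lists had at most 3 members in either direction at an unadjusted p under 0.05. Cux2, an upper-layer transcription factor, was 3417, 4371, 4489, 3604 and 3812 in HT lithium females and 3168, 3091, 3382 and 3048 in WT lithium females. In males it was 4455, 4652, 3753 and 3952 in HT and 3589, 3059, 3287, 3122 and 3379 in WT. The genotypes did not overlap in either sex, and the difference was 0.33 ± 0.09 (SE), with an adjusted p of 0.247 by limma and -0.04 under vehicle. It was 1 of 11 upper-layer markers at that level. Of 14 deep-layer markers 3 were lower, against 4.87% of all genes, among them Foxp2, a layer 6 transcription factor, at -0.48 ± 0.17 (SE). The deep-layer median was -0.09, and the sexes had opposite signs, -0.23 in females and 0.12 in males. With the striatal marker level as a covariate that median turned to 0.01. Erbb4, a neuregulin receptor of interneurons, differed by -0.19 ± 0.07 (SE). Of 16 striatal markers 2 were lower, among them Rgs9, a striatal regulator of G protein signalling, at -0.81 ± 0.38 (SE). The striatal median was -0.13, with -0.20 in females and -0.0005 in males. Its mean level was 0.68 to 1.52 in HT and 0.64 to 2.77 in WT lithium females. Without the lithium libraries of high olfactory level the striatal median was -0.01 and Rgs9 differed by -0.22. The olfactory bulb markers Cdhr1 and Eomes differed by -1.47 ± 0.80 (SE) and -2.24 ± 1.37 (SE), with values of opposite sign in females (0.29 and 0.39) and males (-3.24 and -4.88). Of 18 cortical interneuron markers 1 was higher and 1 lower. With both sexes, none of the 12 meningeal fibroblast, 9 choroid plexus, 7 thalamic and 7 red blood cell genes tested had an unadjusted p under 0.05. In males 4 of the 7 red blood cell genes were higher, against 5.51% of all genes, and their median was 0.74. In females the red blood cell median was -0.42, with 0 in either direction. Of 13 mitochondrially encoded genes 0 were higher and 2 lower, and their median of -0.09 turned to 0.08 without HT lithium female replicate 5. Without the lithium libraries of high olfactory level their median was -0.47, 9 were lower and 1 of them, mt-Atp8, passed the adjusted threshold. That fit kept 2 HT females, 1 of them replicate 5, which lay at -1.67 log2 units in these genes.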

How the data were processed

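The libraries were strand-specific and held poly(A) RNA (TruSeq chemistry, per the labels' protocols). The authors deposited a signal: each library's gene counts scaled by a single size factor, called normalised counts here. Salmon 0.11.2, R 3.6.0, DESeq2 1.19.11 and GRCm38 are named in the submitters' processing notes, with no role or order. The sources used here do not say how the 18088 genes were selected. Scaling by library hides a change in total RNA.

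Columns were matched to samples by library name. Of 59 columns 3 matched no sample and were not used, and 1 of 57 samples, a WT lithium female, was not analysed here. All values were whole multiples of 1 read (100% within 1e-06), so reads were recovered. No 2 lithium replicates agreed within sampling noise (chi-square per degree of freedom at least 8.83).

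Genes that reached 10 normalised counts in 3 or more libraries were kept, and log2(value + 1) of all 12 groups was fitted together by limma-trend (limma 3.58.1 in R 4.3.3), with 44 residual degrees of freedom, two-sided, Benjamini-Hochberg adjusted over 18026 genes and called under 0.05. The log scale understates fold changes of low genes. Gene positions and GC content came from GENCODE vM21. edgeR 4.0.16 (quasi-likelihood, TMM) on the recovered reads was an alternative. The fits were tested on simulated counts.

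Members, lists and tests were chosen with earlier results of these data known. The named genes are the Shank genes, the 10 smallest p in each direction, up to 2 smallest p per list, called genes of the difference tests, and those said to be named after their values were seen. Predicted genes were not named, and the text gives part of the rule's genes; some are not reported here. The alternatives were limma without the trend, TMM factors, no filter, a pseudocount of 5, a fit of the lithium groups, a block on replicate number, library weights, edgeR, an olfactory or a striatal covariate, a GC and length correction, leaving out lithium libraries of high olfactory level, and each lithium library left out. Fits within the vehicle sexes, leaving out each vehicle library, and leaving out both libraries that stood apart, were added after seeing the data.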

Additional observations from a re-analysis of the deposited data

Results flagged for a closer look

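The genotype difference under lithium was set against that under vehicle, and it differed by limma's adjusted p for Nkd1 (0.61 on the log2 scale), Vwa1 (0.64) and Nhsl2 (-0.38), each of which lost its call without several single libraries. Leaving out 1 library gave 0.58 to 0.65 for Nkd1, 0.56 to 0.68 for Vwa1 and -0.43 to -0.35 for Nhsl2. With the correction for GC content and length Vwa1 (0.55) and Nhsl2 (-0.32) did not pass, and Nkd1 (0.59) did.

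A library lay far from the others of its group, by the gap to its nearest neighbour as a share of the group's range, in 18 of 276 groups of values. Chance gives about 1 in 20. Of these, 5 were HT lithium female replicate 5, the library low in mitochondrially encoded genes, with 145 normalised counts of Trim72, 2771 of Slc38a10, 5443 of Sesn3, 7252 of Rpl6 and 3122 of Ndufa8. Among HT lithium females replicate 4 also stood apart in Gsk3b (5943). Among HT lithium males these were replicate 1 in Esrrg (649), replicate 2 in Nrgn (43315) and replicate 3 in Fkbp5 (1226). Among WT lithium females replicate 1 stood apart in Grm3 (1581), replicate 2 in Vwa1 (557) and Slc8a1 (10756), and replicate 4 in Cox4i2 (23.4), Mrps26 (1019) and Rictor (1823). Among WT lithium males replicate 3 stood apart in Gsk3a (6702), replicate 4 in Slc38a10 (1619) and replicate 5 in Gsk3b (7591).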

How the results depend on the processing

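Between HT and WT under lithium, 0 genes passed in most alternatives, but 81 passed with library weights, 241 without the lithium libraries of high olfactory level and 1 with the olfactory covariate. Leaving out 1 library gave 0 to 1. In females 121 passed without the libraries of high olfactory level, and leaving out 1 library gave 0 to 1. In males 428 passed with library weights, 1 with the olfactory covariate and 1 without the 2 libraries apart, and leaving out 1 library gave 0 to 4. Between the sexes 6 passed with library weights. Under vehicle 2 passed with library weights and 1 with edgeR, and leaving out 1 library gave 0 to 1. In vehicle females 8 passed with edgeR. In vehicle males 47 became 21 with the replicate block, 960 with library weights, 133 with the olfactory covariate and 18 with the GC and length correction, and 1 to 86 without 1 library. In the difference between the genotype effects under lithium and vehicle, 3 became 33 with library weights, 6 with the olfactory covariate, 1 with the GC and length correction (Nkd1), 356 without the libraries of high olfactory level and 0 without the 2 libraries apart, and 0 to 5 without 1 library. Within 10 Mb of Shank3 1 passed with library weights (Shank3) and 3 without the libraries of high olfactory level, and over the lists 13 and 12. The cause was not tested. Signs turned for Gsk3a (-0.0011 with the olfactory covariate, -0.0082 with the GC and length correction) and P2ry12 (-0.15 without the libraries of high olfactory level). With the replicate number as a block 0 genes passed under lithium and 3 in the difference from vehicle. The correlation of deviations from group means showed no pairing by number. Over 25 same-numbered pairs it was -0.40 to 0.44, over 0.1 in 4, and 2 of 18 libraries correlated best with their own number. These deviations also carry differences in olfactory level, so whether a number stands for a shared litter or batch was not tested. Depth limits Cox4i2, Gpr149 and Plin4, which lie at low counts.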
